A study of Homo sapiens with 30 samples.

Results

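This account concerns hCMEC/D3 cells that received extracellular vesicles from IL-1 beta-stimulated hCMEC/D3 cells (group EV-IL1b), compared with cells that received vesicles from unstimulated cells (group EV-Control). The members were chosen by their labels, as the 3 libraries of EV-IL1b and the 3 of EV-Control, which are 6 of the 30 RNA-seq libraries in the series. Every gene with an Ensembl ID that passed a filter on low counts was tested, 15918 in all. hCMEC/D3 is 1 immortalized line of human brain microvascular endothelium, and it served both as the source of the vesicles and as the cell that received them. The donor cells of EV-IL1b had been stimulated with IL-1 beta at 10 ng/mL, those of EV-Control had been kept in serum-free medium alone, and the titles of all 30 libraries carry a time of 12 h. All libraries are labelled as the same batch. Whether the time in a vesicle title is that of the recipient or of the donor culture, how much vesicle material was given, and whether residual cytokine accompanied it are not given in the sources used here. The labels do not say whether the 3 replicates were separate cultures, so p-values rest on a spread between libraries that may be technical.

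The series holds 3 more vesicle groups (EV-TNF, EV-C5a and EV-Epinephrine, named for the stimulus of the donor cells) and 5 groups of cells exposed directly to medium or to the same stimuli, with 3 libraries in each. The direct groups used here are Control (serum-free medium) and IL1b (IL-1 beta at 10 ng/mL).

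Extracellular vesicles are membrane-bound particles that cells shed, and they carry proteins, lipids and RNA that a second cell can take up. IL-1 beta signals through the receptor pair IL1R1 and IL1RAP and the adaptor MYD88 to the transcription factor NF-kappaB, which in endothelium switches on adhesion molecules, chemokines and its own inhibitors, among them NFKBIA and TNFAIP3. Interferons signal through STAT2 and IRF9, among other factors, to a separate set of antiviral genes. In the blood-brain barrier, endothelial cells are held together by tight and adherens junctions and carry transporters that control what crosses into the brain.

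Library totals lay between 16643961 and 19276757 counts in the 15 vesicle libraries. Of the 17 tested endothelial markers, 6 were higher in EV-IL1b, 1 was lower, and their summed level was 1526 to 1606 CPM (counts scaled to a common library size) in EV-Control and 1650 to 1721 CPM in EV-IL1b. The platelet and red cell genes HBA1, HBA2, HBB, PF4, PPBP and GP9 were at 0 in all 6 libraries, and the microglial and leukocyte markers summed to 3.24 to 3.65 CPM. Mural and fibroblast markers summed to 626 to 666 CPM in EV-Control and 720 to 790 CPM in EV-IL1b, with 3 of 8 tested markers higher (COL1A1, COL1A2 and CSPG4) and 1 lower (PDGFRB). The call for PDGFRB ended under 8 of the alternative settings, among them total counts in place of TMM factors, the fit to these 6 libraries alone, and the fits without EV-Control replicate 1 or 2 or EV-IL1b replicate 1 or 3. Mitochondrially encoded protein genes took 1.81 to 2.25% of counts in EV-Control and 2.29 to 2.53% in EV-IL1b. The part of these 2 shifts in the results that follow was not tested.

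The EV-Control libraries were the least uniform of the vesicle groups. On the first principal component of the 15 vesicle libraries, which held 27.9% of the variance, EV-Control replicates 1, 2 and 3 lay at -26.2, -19.1 and -12.8, whereas the 3 EV-IL1b libraries lay between 7.44 and 10.3. Between pairs of EV-Control libraries the chi-square per gene was 4.88 to 10.1, and between pairs of EV-IL1b libraries it was 2.63 to 3.54. The main fit took its spread from all 15 vesicle libraries together, so its p-values can understate the spread within EV-Control. EV-Control replicate 1 lay farthest out, so each gene list below was also counted without it, and with a fit to the 6 libraries alone in place of all 15.

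**Figure D1:**
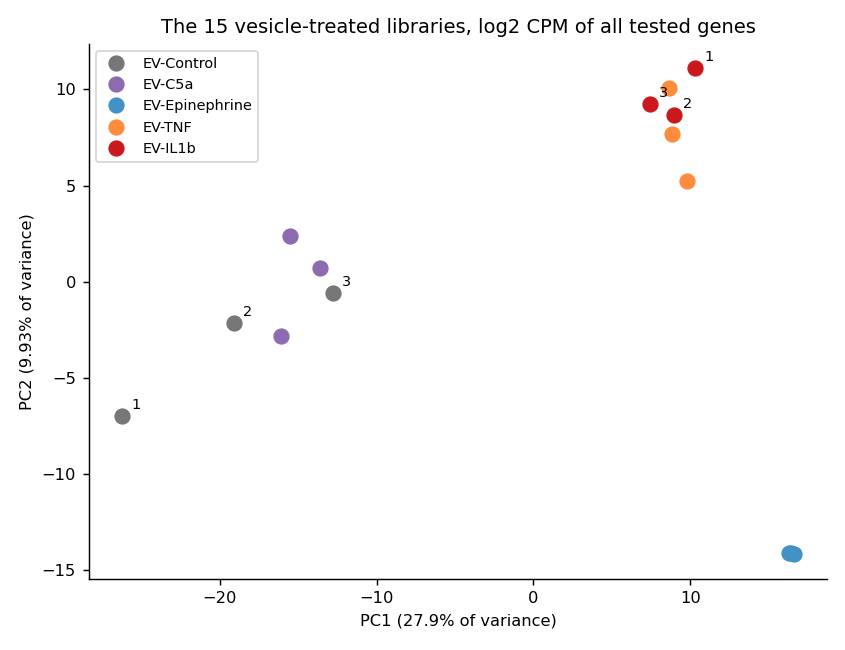
The 15 vesicle-treated libraries on the first (27.9% of variance) and second (9.93%) principal components of log2 CPM, with each point 1 library and replicate numbers beside EV-Control and EV-IL1b. EV-IL1b lies beside EV-TNF, EV-Control lies beside EV-C5a with replicate 1 farthest out, and EV-Epinephrine lies apart from both.

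Of 15918 genes tested, 2329 (14.6%) differed between EV-IL1b and EV-Control by edgeR's quasi-likelihood test at a Benjamini-Hochberg adjusted p under 0.05, which is the threshold for every "rose" and "fell" below. 1033 genes (6.49%) were higher in EV-IL1b and 1296 (8.14%) were lower. Most differences were small: a log2 fold change above 1 in size was reached by 110 of the higher and 109 of the lower genes. The median log2 fold change over all tested genes was -0.0019, and for 28.5% of genes all 3 values of one group lay beyond all 3 of the other. All fold changes below are EV-IL1b against EV-Control unless another pair is named. A fall is thus a level below EV-Control, which need not be below cells kept in medium alone. Counts come from whole RNA of a culture, so fewer cells of a kind and less RNA per cell cannot be told apart.

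Interferon-stimulated genes rose as a group. Of the 34 listed genes, all tested, 28 rose, 1 fell and 5 did not pass, with a median log2 fold change of 0.60. RSAD2, the antiviral enzyme viperin, stood at 54.2, 54.0 and 56.1 CPM in the EV-Control libraries and at 125, 116 and 111 CPM in the EV-IL1b libraries. Every EV-IL1b library was thus above every EV-Control library, and the fold change was 2.14 (log2 1.10 ± 0.056 SE, edgeR quasi-likelihood adjusted p = 1.3e-20, n = 3 per group). IFIT1, which binds viral RNA ends, read 219, 223 and 236 CPM against 404, 394 and 363 CPM, a rise of 0.77 ± 0.036 SE on the log2 scale (edgeR adjusted p = 7.2e-24). The 3 IFIT1 values of each group were close together and the groups were well apart.

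Sensors and transcription factors of the pathway moved with these effectors. STAT2 rose by 0.44 on the log2 scale. IRF9, its DNA-binding partner, rose by 0.79, and IRF7 rose by 0.51. RIGI and IFIH1, the cytoplasmic sensors of viral RNA, rose by 1.28 and 0.64. MX1, a dynamin-like antiviral GTPase, read 628, 597 and 612 CPM against 1104, 990 and 913 CPM. ISG15, a ubiquitin-like modifier, read 223, 235 and 239 CPM against 397, 354 and 353 CPM, and its deconjugating enzyme USP18 rose by 0.77. The antigen presentation genes of the list moved little: TAP1 rose by 0.38 and HLA-E by 0.10, whereas HLA-B (0.10), B2M (0.03) and PSMB9 (0.13) did not pass. IRF1 was the 1 member that fell, by 0.97 ± 0.22 SE (edgeR adjusted p = 0.016), from 192, 108 and 92.9 CPM to 71.1, 65.5 and 64.4 CPM. That fall did not pass in the fit to the 6 libraries alone or without EV-IL1b replicate 2 or 3. Without EV-Control replicate 1 the list had 28 higher and 1 lower, with a median of 0.61. RSAD2 overlaps CMPK2 on the other strand and IFIT2 overlaps LIPA, and the strand setting of the counting is not given in the sources used here.

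The 250 bases before the RefSeq start of IFIT1 are shown because they hold matches to the interferon-stimulated response element (ISRE). The build of the RefSeq table is GRCh38.p14, the window is chr10:89392373-89392622 on the plus strand, and the capitals mark the matches, which begin 116 and 103 bases before the start.
IFIT1: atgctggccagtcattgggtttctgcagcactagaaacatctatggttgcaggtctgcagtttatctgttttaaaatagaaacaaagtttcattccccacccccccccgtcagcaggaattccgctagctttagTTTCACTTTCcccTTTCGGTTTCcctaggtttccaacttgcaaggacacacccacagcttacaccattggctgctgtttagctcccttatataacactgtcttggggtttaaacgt
The ISRE was searched on both strands as GAAA, any 2 bases and GAAA, and matches to different motifs were counted separately, also where they overlap. It was found in 14 of the 25 listed interferon genes that have a promoter in the table (56.0%). Among all 27305 promoters 3.07% held it, as did 2.46% of the 11278 tested genes with a promoter, 7.28% of the 756 higher genes and 1.95% of the 1028 lower genes. The higher genes include members of the interferon list, IFIT1 among them, so the share of the higher genes is not a separate result. A match describes the letters and is not evidence of binding.

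Chaperones of the endoplasmic reticulum formed a second group of rises, small in size and tight between libraries. Of 14 chaperones and foldases tested, 11 rose, 1 fell and 2 did not pass, with a median log2 fold change of 0.22. HSPA5 (BiP), the main chaperone of this compartment, stood at 659, 683 and 714 CPM in EV-Control and at 1056, 969 and 981 CPM in EV-IL1b. The groups did not overlap, and the rise was 0.55 ± 0.03 SE (edgeR adjusted p = 5.6e-21). CALR, a calcium-binding lectin chaperone, rose by 0.31, HSP90B1 by 0.26, HYOU1 by 0.29 and the secreted factor MANF by 0.32. DNAJB9, a co-chaperone of HSPA5, fell by 0.52, and it overlaps PNPLA8 and THAP5 on the other strand. The sensors and degradation genes of the same list did not share the rise: of 9 tested, none rose and EIF2AK3 (-0.26) and EDEM1 (-0.19) fell, whereas XBP1 (-0.19), ATF6 (0.03), DDIT3 (-0.01) and HERPUD1 (0.03) did not pass. Without EV-Control replicate 1 the chaperone counts were again 11 higher and 1 lower.

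The window before the start of HSPA5 (chr9:125241344-125241593, minus strand, GRCh38.p14, printed 5′ to 3′ along the gene) is shown because it holds the endoplasmic reticulum stress element (ERSE), in capitals, beginning 66 bases before the start.
HSPA5: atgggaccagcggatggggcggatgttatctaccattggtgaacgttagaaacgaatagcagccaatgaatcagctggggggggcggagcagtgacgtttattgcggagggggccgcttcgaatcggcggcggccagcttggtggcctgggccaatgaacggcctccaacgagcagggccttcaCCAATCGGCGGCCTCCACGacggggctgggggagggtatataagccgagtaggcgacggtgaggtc
The ERSE was searched as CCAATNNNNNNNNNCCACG on both strands. It lay before 5 of 13 listed chaperones with a promoter in the table (38.5%). Among all 27305 promoters 22 held it (0.0806%), as did 14 of the 11278 tested genes with a promoter (0.124%). It lay before 6 of the 756 higher genes (0.794%) and before none of the 1028 lower genes. The higher genes include chaperones of the list, HSPA5 among them, so the share of the higher genes is not a separate result.

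The 2 largest rises among the genes named for size were in cell contact genes. FAT1, a giant atypical cadherin, was at 1.62, 2.26 and 3.40 CPM in EV-Control and at 20.1, 16.2 and 15.8 CPM in EV-IL1b. The 2 groups were far apart, and the fold change was 7.08 (log2 2.82 ± 0.16 SE, edgeR quasi-likelihood adjusted p = 2.2e-20). DSP, the desmosomal plakin desmoplakin, read 7.74, 6.56 and 7.17 CPM against 37.0, 31.9 and 32.0 CPM, a fold change of 4.70 (log2 2.23 ± 0.10 SE, edgeR adjusted p = 1.4e-24). Of 19 tested atypical cadherin and desmosome genes, FAT1 and DSP among them, 8 rose and none fell, with a median of 0.18. That is 42.1% called, beside 14.6% of all genes. The list was made with earlier results of these data known, so its count is no test of a theme. DSG2, a desmosomal cadherin, rose by 1.85 from 1.38, 0.66 and 0.33 CPM to 3.81, 2.63 and 2.05 CPM. CELSR1, a cadherin of planar cell polarity, rose by 0.87, and FAT4, PKP2, PKP4 and MACF1 rose by 0.12 to 0.19. Without EV-Control replicate 1 the list again had 8 higher and 0 lower.

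**Figure D2:**
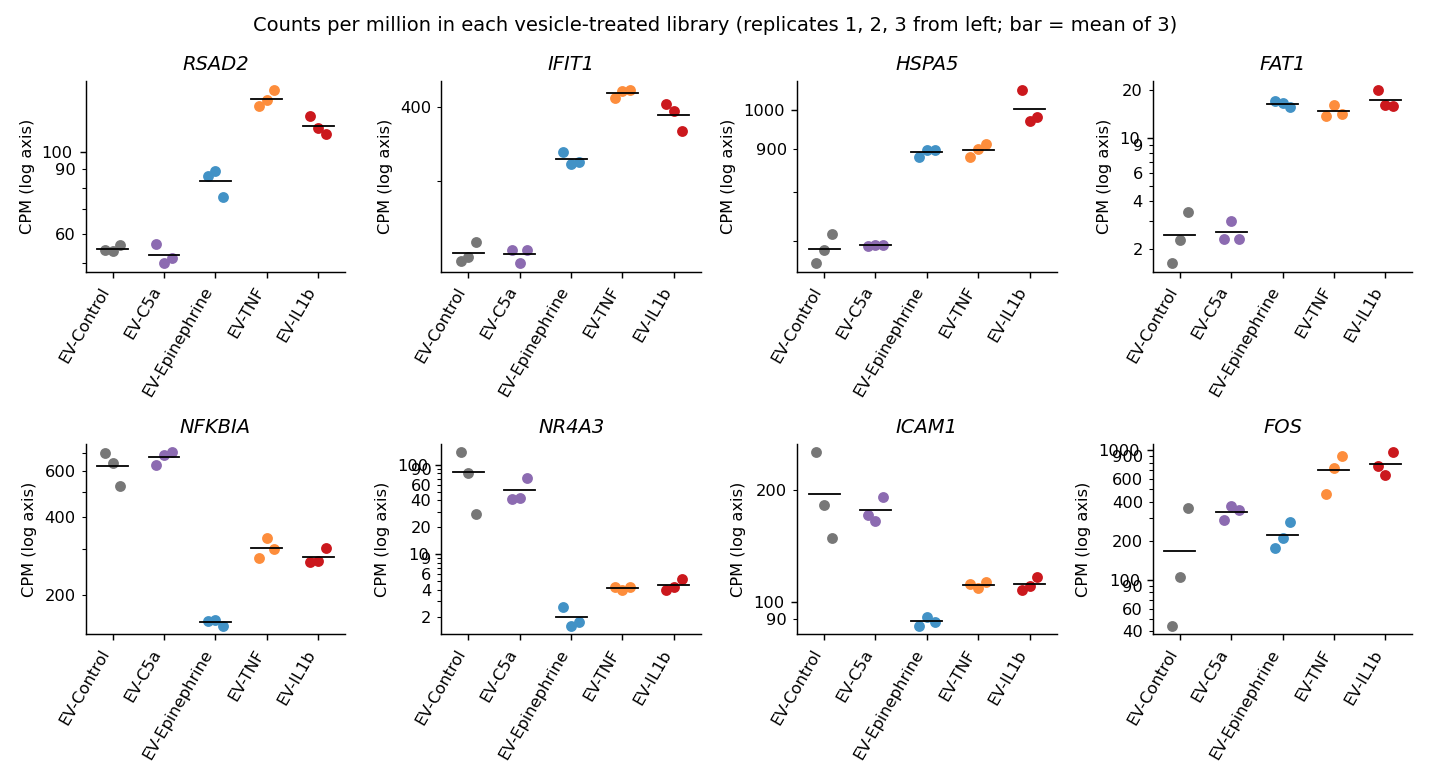
CPM on log axes for 8 genes in each of the 15 vesicle libraries, 3 points per group and a bar at the mean. EV-IL1b lies above EV-Control without overlap for RSAD2, IFIT1, HSPA5, FAT1 and FOS and below it for NFKBIA, NR4A3 and ICAM1, and the EV-Control points are widest apart for NR4A3 and FOS.

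The pathway of IL-1 itself moved the other way. Of 39 tested genes of IL-1 signalling, 17 fell, 1 rose and 21 did not pass, with a median of -0.16. IL1A, the alpha form of the cytokine, fell from 13.6, 12.5 and 6.52 CPM to 3.52, 3.60 and 2.40 CPM, by 1.77 ± 0.21 SE on the log2 scale (edgeR adjusted p = 1.4e-07). IL1B, the stimulus that the donor cells had received, was itself transcribed in both groups: 67.2, 71.5 and 79.1 CPM in EV-Control and 43.5, 44.1 and 49.8 CPM in EV-IL1b, a fall of 0.67 ± 0.089 SE (edgeR adjusted p = 3.3e-05). For both cytokines all EV-IL1b libraries were below all EV-Control libraries.

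The receptor IL1R1 stood at 29.5, 23.2 and 22.8 CPM against 19.2, 18.9 and 19.1 CPM and fell by 0.40 ± 0.092 SE (edgeR adjusted p = 0.0013), a call that ended without EV-Control replicate 1. Its co-receptor IL1RAP fell by 0.20 ± 0.066 SE (edgeR adjusted p = 0.030), a call that ended in the fit to the 6 libraries alone and in 4 of the fits that left out 1 library, those without EV-Control replicate 2 or 3 and those without EV-IL1b replicate 1 or 3. MYD88, the adaptor that joins the receptor to its kinases, was the 1 gene of the list that rose, from 60.4, 65.3 and 64.3 CPM to 86.4, 85.8 and 84.9 CPM (0.43 ± 0.049 SE, edgeR adjusted p = 1.0e-09). The kinase IRAK1 (-0.03) and the ubiquitin ligase TRAF6 (-0.07) did not pass.

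The genes listed as feedback inhibitors of NF-kappaB were the part of the list with the most falls. Of the 10 so listed, all tested, 8 fell and none rose, with a median of -0.54. The grouping is that of the list, and whether each member is induced by NF-kappaB or inhibits it in these cells was not tested. NFKBIA (I-kappa-B alpha), which holds NF-kappaB in the cytoplasm, fell from 704, 645 and 527 CPM to 269, 270 and 304 CPM, by 1.16 ± 0.10 SE (edgeR adjusted p = 2.4e-05). TNFAIP3 (A20), a ubiquitin-editing enzyme, read 438, 320 and 217 CPM against 102, 109 and 125 CPM (log2 -1.54, edgeR adjusted p = 0.0010). ZC3H12A, an RNase that degrades cytokine mRNAs, read 193, 127 and 84.7 CPM against 47.6, 49.9 and 52.2 CPM (log2 -1.43, edgeR adjusted p = 0.0028). In each of these genes the EV-IL1b libraries lay close together below a wide EV-Control group. NFKBIE, NFKBIZ, BCL3, NFKBIB and CYLD fell by 0.23 to 0.85. Of the NF-kappaB subunits, NFKB2 (-0.75), RELB (-0.56) and REL (-1.29) fell, and RELA (-0.09) and NFKB1 (-0.16) did not pass.

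In the fit to the 6 libraries alone, 5 of the IL-1 signalling genes and 2 of the feedback inhibitors (NFKBIA and BCL3) fell, and the calls for TNFAIP3, ZC3H12A, NFKBIE, NFKBIZ, NFKBIB, CYLD, NFKB2, RELB and REL ended. Leaving out 1 library also ended some of these: RELB and CYLD without EV-Control replicate 1, REL without each EV-IL1b replicate in turn, and BCL3 without EV-Control replicate 2 or EV-IL1b replicate 1 or 2. Without EV-Control replicate 1, 14 genes of the list and 7 of the feedback inhibitors fell.

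The windows before TNFAIP3 (chr6:137867009-137867258, plus strand) and NFKBIA (chr14:35404750-35404999, minus strand), both on GRCh38.p14 and 5′ to 3′ along the gene, are shown because they belong to the 2 best known feedback inhibitors, with matches to the kappa-B motif in capitals.
TNFAIP3: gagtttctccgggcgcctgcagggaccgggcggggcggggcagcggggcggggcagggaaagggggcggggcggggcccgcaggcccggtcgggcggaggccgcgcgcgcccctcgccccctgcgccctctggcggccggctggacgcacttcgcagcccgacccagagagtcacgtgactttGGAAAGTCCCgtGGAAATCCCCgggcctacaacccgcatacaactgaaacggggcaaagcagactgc
NFKBIA: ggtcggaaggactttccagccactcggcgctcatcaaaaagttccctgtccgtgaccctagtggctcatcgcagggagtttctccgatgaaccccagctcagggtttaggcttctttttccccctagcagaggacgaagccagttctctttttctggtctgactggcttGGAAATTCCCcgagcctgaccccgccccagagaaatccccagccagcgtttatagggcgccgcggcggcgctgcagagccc
The matches begin 67 and 55 bases before the start of TNFAIP3 and 81 bases before that of NFKBIA. The kappa-B motif lay before 3 of 9 feedback inhibitors with a promoter in the table (33.3%), 8.10% of the tested genes with a promoter, 10.2% of the higher and 8.56% of the lower genes, and 6.60% of all promoters in the table. It also lay before 8 of 25 genes of the interferon list (32.0%).

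Endothelial activation genes, the classical targets of IL-1 beta, did not rise as a group. Of 33 tested, 2 rose, 11 fell and 20 did not pass, with a median of -0.44. ICAM1, the leukocyte adhesion molecule, stood at 252, 182 and 148 CPM in EV-Control and at 107, 110 and 117 CPM in EV-IL1b, a fall of 0.80 ± 0.15 SE (edgeR adjusted p = 0.0051). VCAM1, a second adhesion molecule, read 43.6, 20.7 and 13.8 CPM against 7.68, 9.67 and 9.01 CPM (-1.56 ± 0.37 SE, edgeR adjusted p = 0.017). SELE, E-selectin, was at 5.22, 1.54 and 0.055 CPM against 0.40, 0.32 and 0.51 CPM, groups that overlap, and did not pass (edgeR adjusted p = 0.12). The calls for ICAM1 and VCAM1 ended in the fit to the 6 libraries alone, and that for VCAM1 also without EV-IL1b replicate 1 or 3. In that fit 6 genes of the list fell, and without EV-Control replicate 1 there were 10.

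The 2 that rose were chemokines. CCL5, which draws T cells and monocytes, was at 8.88, 9.48 and 8.49 CPM in EV-Control and at 21.6, 18.8 and 17.6 CPM in EV-IL1b (1.11 ± 0.11 SE, edgeR adjusted p = 2.3e-11). CXCL11, a ligand of CXCR3, was at 0.48, 0.22 and 0.55 CPM against 1.16, 1.5 and 1.88 CPM (1.85 ± 0.44 SE, edgeR adjusted p = 0.0018). CCL20, CXCL3 and CXCL12 fell, by 1.62, 1.33 and 0.80. The inflammatory chemokines CXCL8 (-0.14), CXCL1 (-0.48) and CCL2 (-0.60) did not pass, and neither did IL6 (-0.16). CXCL8 read 216, 200 and 205 CPM against 160, 179 and 226 CPM, and the 95% interval of its log2 difference ran from -0.50 to 0.22. CSF2, the growth factor GM-CSF, fell from 14.7, 5.62 and 3.23 CPM to 0.52, 0.48 and 1.43 CPM (-3.27 ± 0.70 SE, edgeR adjusted p = 0.0099), and the fit to the 6 libraries alone ended that call. Among the rest, the mitochondrial superoxide dismutase SOD2 (-0.86) and the apoptosis inhibitor BIRC3 (-1.07) fell, and both calls ended in the fit to the 6 libraries alone.

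**Figure D3:**
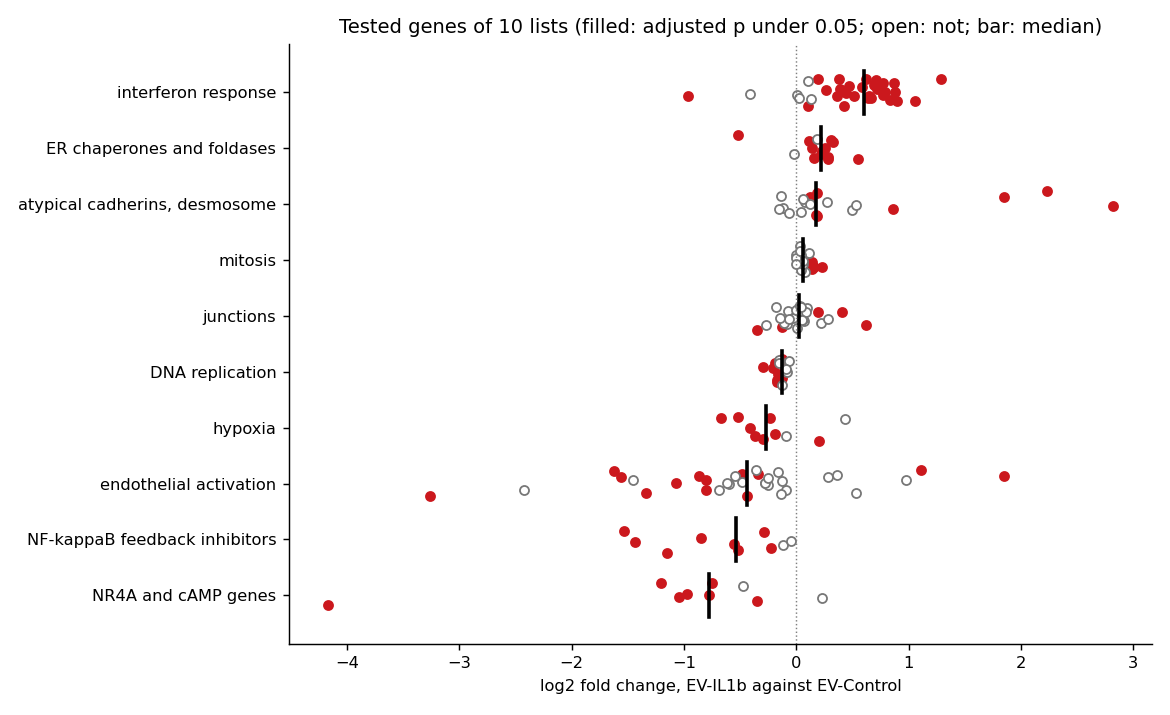
Log2 fold change of EV-IL1b against EV-Control for the tested genes of 10 lists, with 1 point per gene, filled where the adjusted p was under 0.05, and a bar at each median. Interferon genes lie mostly to the right (28 of 34 higher, median 0.60), and NF-kappaB feedback inhibitors and NR4A and cAMP genes mostly to the left (8 of 10 and 7 of 9 lower).

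Among early response genes, the NR4A nuclear receptors and other genes that cyclic AMP induces fell. Of 9 tested, 7 fell and none rose, with a median of -0.77. NR4A3 had the largest fall among the named genes, from 137, 80.8 and 28.1 CPM to 3.98, 4.35 and 5.30 CPM, a fold change of 18.0 (log2 -4.17 ± 0.59 SE, edgeR adjusted p = 0.00073). The EV-Control libraries spanned a wide range and the EV-IL1b libraries a narrow one, and the fit to the 6 libraries alone ended that call. NR4A1 read 444, 453 and 351 CPM against 222, 240 and 270 CPM (-0.77 ± 0.10 SE, edgeR adjusted p = 0.00051), and NR4A2 read 370, 334 and 298 CPM against 133, 137 and 165 CPM (-1.20 ± 0.13 SE, edgeR adjusted p = 8.8e-05). The phosphodiesterase PDE4B, the salt-inducible kinase SIK1 and the clock gene PER1 fell by 1.04, 0.75 and 0.97. The counts for these 9 genes were 6 lower in the fit to the 6 libraries alone and 6 lower without EV-Control replicate 1. The cyclic AMP response element, searched on both strands as TGAC directly followed by GTCA, was found in none of the 8 listed genes with a promoter in the table, in 2.86% of the tested genes and in 1.77% of all promoters, which says only that these letters are not in these windows.

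AP-1 and EGR factors did not move as 1 block: of 12 tested, FOS, EGR1 and EGR2 rose, and FOSL1 (-0.55) and FOSL2 (-0.47) fell. FOS read 44.2, 105 and 355 CPM in EV-Control and 759, 642 and 958 CPM in EV-IL1b (2.22 ± 0.58 SE, edgeR adjusted p = 0.029). EGR1 read 87.9, 180 and 293 CPM against 409, 492 and 547 CPM (1.36 ± 0.32 SE, edgeR adjusted p = 0.016). The groups did not overlap for either gene, but the calls for FOS, EGR1 and EGR2 ended in the fit to the 6 libraries alone. That for FOS also ended without a low-count filter, without EV-Control replicate 2 and without each EV-IL1b replicate in turn, that for EGR1 without EV-Control replicate 2 or EV-IL1b replicate 3, and that for EGR2 without EV-Control replicate 1 or EV-IL1b replicate 3. JUN (0.63), FOSB (-0.32), ATF3 (-0.48) and MYC (0.19) did not pass. The phosphatase DUSP4 rose by 0.73, and DUSP1 (0.74) did not pass.

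The genes named for the size of their rise (groups that did not overlap, with a mean of 5 CPM or more in EV-IL1b) also included BATF2 (log2 1.20), ZNF594 (1.19), LRP3 (1.16), MRAS (1.13) and RTP4 (1.12), all at 4.56 to 8.70 CPM in EV-IL1b. BATF2 is a transcription factor of the AP-1 family and MRAS a small GTPase. Among the largest falls, GEM, a small GTPase that restrains calcium channels, went from 36.0, 25.9 and 17.7 CPM to 3.46, 4.4 and 4.39 CPM (-2.69 ± 0.32 SE, edgeR adjusted p = 0.00020). RASD1, another small GTPase, fell by 2.01, the endothelial transcription factor GATA6 by 1.87, DLX2 by 1.95, MEDAG by 1.92, the secreted hormone STC1 by 1.91, RND1 by 1.90, the histone demethylase KDM6B by 1.77 and C11orf96 by 2.00. The calls for MEDAG, STC1, RND1 and KDM6B ended in the fit to the 6 libraries alone, and that for RND1 also without EV-IL1b replicate 2. GATA6 overlaps GATA6-AS1 and C11orf96 overlaps AC087521.1 on the other strand.

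Of 26 tested junction genes 3 rose and 2 fell (19.2%, beside 14.6% of all genes), with a median of 0.03. The tight junction genes CLDN5 (15.5, 14.1 and 15.8 CPM against 19.3, 16.9 and 16.7 CPM), OCLN (22.9, 22.2 and 25.2 against 19.7, 21.2 and 21.3) and TJP1 (215, 198 and 197 against 207, 209 and 198) did not pass. Their 95% intervals ran from 0.03 to 0.41, from -0.35 to -0.0019 and from -0.07 to 0.09 on the log2 scale. CDH5, VE-cadherin, did not pass either, with 198, 190 and 180 CPM against 185, 186 and 185 CPM and an interval from -0.11 to 0.05. PECAM1, a contact molecule of endothelium, rose from 151, 146 and 145 CPM to 203, 196 and 190 CPM (0.41 ± 0.038 SE, edgeR adjusted p = 1.8e-12), and the junction protein ESAM rose by 0.62. CDH2 (-0.13) and CGNL1 (-0.35) fell, and neither passed without EV-Control replicate 1 or without EV-IL1b replicate 1. The call for CGNL1 also ended without EV-Control replicate 3, without EV-IL1b replicate 3 and in the fit to the 6 libraries alone.

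Of 27 barrier transporters and receptors 3 rose and 9 fell (44.4%), with a median of -0.05. In the fit to the 6 libraries alone 2 rose and 7 fell. The efflux pump ABCB1 (P-glycoprotein) fell from 175, 176 and 177 CPM to 145, 158 and 157 CPM (-0.20 ± 0.038 SE, edgeR adjusted p = 7.7e-05), and ABCC1 and ABCC3 fell by 0.24 and 0.26. The glucose transporter SLC2A1 rose by 0.21. The transferrin receptor TFRC fell by 0.37 and the large amino acid transporter subunit SLC7A5 by 0.46.

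Sterol genes moved in both directions. Of 20 cholesterol synthesis genes 8 fell and FDFT1 rose, with a median of -0.08, and the largest falls were IDI1 (-0.36) and HMGCS1 (-0.31). In the fit to the 6 libraries alone 6 of these genes fell and 1 rose. Both listed efflux transporters rose, ABCA1 by 0.56 and ABCG1 by 1.25, the second from 1.38, 1.38 and 1.15 CPM to 2.48, 3.38 and 3.42 CPM. Of 10 hypoxia genes 7 fell and SLC2A1 rose, with a median of -0.27, and NDRG1 fell by 0.52, VEGFA by 0.36 and ANKRD37 by 0.67. Of 20 glycolysis genes 8 fell and none rose, led by the regulators PFKFB3 (-1.11) and PDK4 (-1.03), while the abundant enzymes GAPDH (-0.09), PKM (-0.08) and LDHA (-0.13) fell slightly. PDK4, which switches off glucose oxidation, read 194, 145 and 127 CPM against 66.6, 76.2 and 86.4 CPM, and its call and that for PFKFB3 ended in the fit to the 6 libraries alone, where 5 glycolysis genes fell.

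Among cell cycle genes the changes were small, with falls in replication genes and fewer calls, all of them rises, in mitosis genes. Of 18 replication genes 12 fell and none rose (66.7%, beside 14.6% of all genes), with a median of -0.13. The largest fall was that of the transcription factor E2F1 (-0.29). The helicase subunits fell by 0.13 (MCM4 and MCM5), 0.17 (MCM6) and 0.21 (MCM7), and the calls for MCM2 and MCM3 ended with total counts in place of the scaling factors. Of 18 mitosis genes 5 rose (CCNB1, CDC20, AURKA, MKI67 and TPX2, by 0.11 to 0.23) and none fell (27.8%), with a median of 0.06. Without EV-Control replicate 1 these counts were 9 replication genes lower and 2 mitosis genes higher, in a fit that called 1698 of 16367 genes. Of the cell cycle inhibitors CDKN1A (-0.35) and CDKN1B (-0.49) fell.

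Matrix, growth factor and developmental signals also changed. Of 10 proteases and inhibitors of the matrix 8 fell and none rose, with a median of -0.19, among them the urokinase PLAU (-0.42), TIMP1 (-0.36) and MMP2 (-0.25), and 5 fell in the fit to the 6 libraries alone, where PLAU did not pass. TGFBI, a matrix protein that TGF-beta induces, fell from 547, 548 and 532 CPM to 342, 348 and 355 CPM (-0.64 ± 0.03 SE, edgeR adjusted p = 8.7e-24). Of 16 TGF-beta and BMP genes 7 fell and 2 rose, with SMAD7, an inhibitory SMAD, down from 19.8, 29.8 and 27.5 CPM to 9.35, 8.27 and 8.21 CPM (-1.58 ± 0.12 SE, edgeR adjusted p = 6.9e-14). ID2, a target of BMP signals, fell by 1.25. In the fit to the 6 libraries alone 6 of the TGF-beta and BMP genes fell and 1 rose. Of 11 Notch genes 2 rose and 3 fell, and in the fit to the 6 libraries alone 2 rose and 1 fell. In the Notch list NOTCH3 rose by 0.87, and the target HEY1 fell by 1.22. The target NRARP fell as well, from 118, 96.2 and 63.1 CPM in EV-Control to 42.9, 45.4 and 50.1 CPM in EV-IL1b, a call that ended in the fit to the 6 libraries alone. Of 16 angiogenic ligands 5 rose, among them PDGFB (0.57) and FGF2 (0.34), and 4 fell: VEGFA and the EGF receptor ligands HBEGF (-1.19), AREG (-1.05) and EREG (-1.69). Of 13 angiogenic receptors 4 rose (FLT1, FLT4, AXL and ROBO4) and UNC5B fell by 0.52. The calls for FLT1 and FLT4 ended in the fit to the 6 libraries alone.

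Genes of vesicle formation were tested because the recipients could in turn shed vesicles. Of 40 genes 9 fell and none rose (22.5%, beside 14.6% of all genes), with a median of -0.04. The named falls were small: LAMP1 (-0.14), RAB31 (-0.21), CD9 (-0.11) and SDC4 (-0.45). The tetraspanins CD63 (-0.03) and CD81 (-0.05) did not pass. Without EV-Control replicate 1 the count was 6, in a fit that called 1698 of 16367 genes. Of 79 ribosomal protein genes 11 fell and 2 rose (16.5%, near the 14.6% of all genes), and without EV-Control replicate 1 there were 6 and 0. None of 65 nuclear genes of oxidative phosphorylation was called, and 3 of 13 mitochondrially encoded genes (23.1%) rose, which was 1 without EV-Control replicate 1.

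The direct exposure to IL-1 beta was set beside these results, from libraries that the vesicle comparison does not use. Direct IL1b against Control called 7419 of 15908 genes (46.6%), 24.0% higher and 22.6% lower, and 15450 genes were tested in both comparisons. Of 2299 vesicle calls among these, 1460 (63.5%) were also direct calls, which is 19.9% of the 7332 direct calls, and 47.5% of all the shared genes were direct calls. 824 of the 1460 moved in the same direction and 636 in opposite directions. Across genes, which are not independent replicates, the Pearson correlation of the log2 fold changes was 8.06e-05.

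The 50 genes with the largest direct rise were chosen on the direct libraries. Of the 49 tested in vesicle recipients 6 rose and 12 fell, with a median of -0.26. CXCL6, a neutrophil chemokine, went from 4.13, 4.54 and 4.67 CPM in Control to 414, 392 and 382 CPM under direct IL-1 beta. In vesicle recipients it read 5.34, 3.69 and 4.27 CPM in EV-Control and 2.94, 3.97 and 4.05 CPM in EV-IL1b, where the groups overlap and the test did not pass. VCAM1 went from 7.36, 6.3 and 9.0 CPM to 128, 127 and 116 CPM under the cytokine, and fell in vesicle recipients. TNFAIP6, a hyaluronan-binding protein that the cytokine induces, was at 51.9, 43.4 and 43.7 CPM under direct IL-1 beta and at 0 to 0.36 CPM in the EV-Control and EV-IL1b libraries, where it did not pass the low-count filter. Of the 50 genes with the largest direct fall, 6 rose and 15 fell in vesicle recipients, with a median of -0.20. In the fit to the 6 libraries alone 7 of the direct rises fell.

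By list the 2 comparisons read as follows. Of 35 activation genes tested directly 33 rose and none fell, with a median log2 fold change of 2.79, against 2 higher and 11 lower of 33 through vesicles. Interferon genes rose in both: 29 of 34 directly (median 1.01) and 28 of 34 through vesicles (median 0.60). Chaperones rose in both, 11 of 14 each time. The NR4A and cAMP genes fell in both, 8 of 9 directly and 7 of 9 through vesicles, but from unlike baselines. NR4A1 went from a mean of 191 CPM in Control to 17.5 in IL1b, and from 416 in EV-Control to 244 in EV-IL1b. The same means were 112, 11.1, 334 and 145 CPM for NR4A2. They were 12.5, 1.6, 82.1 and 4.55 CPM for NR4A3 and 390, 120, 480.5 and 245 CPM for PER1. EV-IL1b thus lay above Control for NR4A1 and NR4A2 and below it for NR4A3 and PER1. NFKBIA fell through vesicles and did not pass directly (302, 285 and 336 CPM against 283, 271 and 266 CPM). PECAM1 fell by 0.52 directly and rose by 0.41 through vesicles. For some genes EV-Control stood away from Control. Mean CPM in Control, EV-Control and EV-IL1b were 308, 625 and 281 for NFKBIA and 271, 148 and 196 for PECAM1. They were 2.55, 26.5 and 4.09 for GEM and 29.4, 120 and 35.1 for KDM6B. For RSAD2 (57.3, 54.8 and 117) and FAT1 (1.4, 2.4 and 17.4) EV-Control lay near Control. EV-Control was not tested against Control here.

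**Figure D4:**
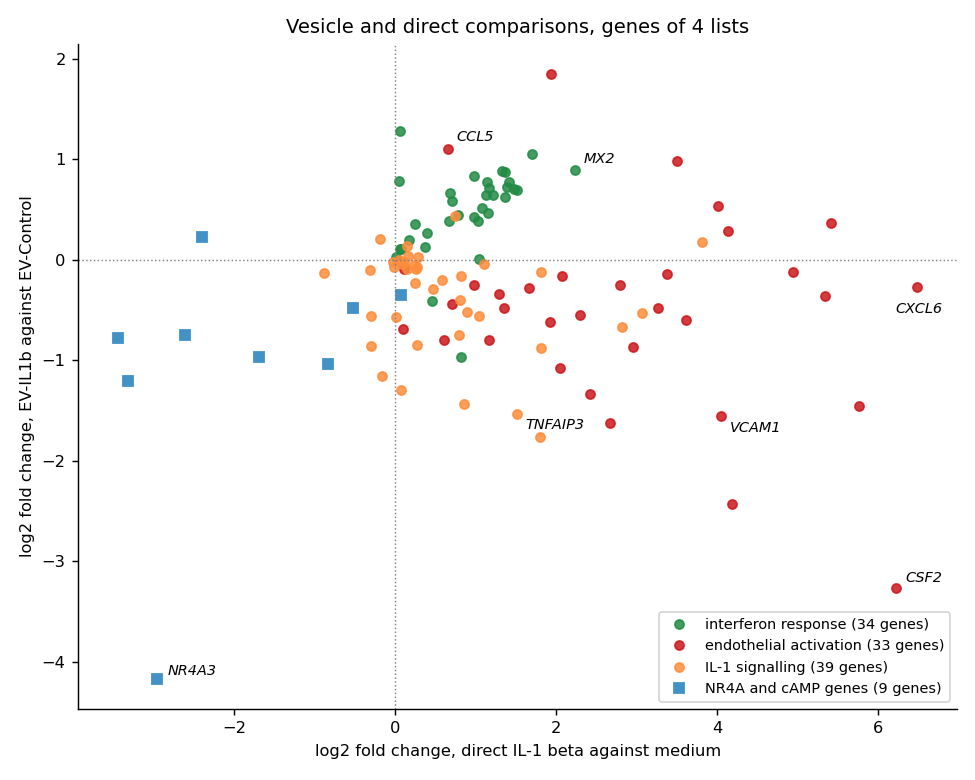
Log2 fold change of direct IL-1 beta against medium (horizontal) and of EV-IL1b against EV-Control (vertical) for the genes of 4 lists, 1 point per gene. Interferon genes lie mostly upper right, and NR4A3 lies at the lower left (-2.96 and -4.17). Activation genes spread to the right, more of them below 0 than above it, with CCL5 among those above.

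The difference between the 2 responses was tested as an interaction over all 30 libraries. It was called for 5879 of 16691 genes (35.2%), 2827 (16.9%) with a higher vesicle response and 3052 (18.3%) with a lower one. FAT1 did not pass in the direct comparison (-0.20) and its interaction was 3.04 ± 0.38 SE (edgeR adjusted p = 3.5e-09). VIPR1, a receptor for vasoactive intestinal peptide, fell by 2.37 directly and rose by 0.88 through vesicles. ST3GAL5, an enzyme of ganglioside synthesis, fell by 3.18 directly and read 18.3, 17.2 and 16.4 CPM against 15.7, 18.1 and 19.3 CPM through vesicles. VIPR1 overlaps VIPR1-AS1 on the other strand.

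The vesicle groups were then compared with each other without passing through EV-Control. Between EV-IL1b and EV-TNF 1 of 15918 genes was called (0.00628%), with 978 at an unadjusted p under 0.05 and 1 called by DESeq2. That gene was HSPA5, at 880, 900 and 910 CPM in EV-TNF and higher in EV-IL1b by 0.16 ± 0.03 SE (edgeR adjusted p = 0.029). No gene was called, and so HSPA5 was not, in the fit to all 30 libraries or without EV-TNF replicate 1. For the genes that led the comparison with EV-Control, the EV-TNF values lay near those of EV-IL1b: FAT1 at 13.7, 16.2 and 14.2 CPM, NFKBIA at 278, 333 and 300 CPM and NR4A3 at 4.27, 3.99 and 4.37 CPM. RSAD2, at 132, 138 and 147 CPM in EV-TNF, was above all 3 EV-IL1b libraries and did not pass. A p above the threshold does not show that these vesicles act alike, and the 95% interval of the EV-IL1b to EV-TNF difference ran from 0.003 to 0.48 for FAT1.

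Against EV-C5a 1731 genes (10.9%) were called, 839 (5.27%) higher and 892 (5.6%) lower in EV-IL1b. The genes named for size were FAT1, DSP and BATF2 (higher) and NR4A3, GEM and C11orf96 (lower), and FAT1 stood at 2.30, 2.99 and 2.30 CPM in EV-C5a. Of the listed interferon genes 28 of 34 were higher than in EV-C5a and none lower, with a median of 0.57, and 12 of 14 chaperones were higher. These comparisons with EV-C5a and with EV-Control share the 3 EV-IL1b libraries.

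Against EV-Epinephrine 963 genes (6.05%) were called, 556 (3.49%) higher and 407 (2.56%) lower in EV-IL1b. In the fit to these 6 libraries alone there were 1493, and without EV-IL1b replicate 2 or EV-Epinephrine replicate 1 or 3 there were 625, 592 and 617. FOSB, an AP-1 subunit, was at 75.5, 88.0 and 127 CPM in EV-Epinephrine and at 424, 371 and 519 CPM in EV-IL1b (2.18 ± 0.36 SE, edgeR adjusted p = 0.0044). ATF3, a stress-induced factor, was at 105, 115 and 136 CPM against 395, 384 and 490 CPM (1.83 ± 0.18 SE, edgeR adjusted p = 1.0e-04), and the microRNA host gene MIR23AHG was higher by 1.58. PTPRS, HOPX and ZNF691 were lower, by 0.79, 0.75 and 0.97. Of 34 interferon genes 23 were higher than in EV-Epinephrine and none lower, with a median of 0.22. Of 14 chaperones 1 was higher and 3 were lower. FAT1, at 17.1, 16.6 and 15.6 CPM in EV-Epinephrine, and DSP, at 33.6, 35.0 and 28.8 CPM, did not pass, with 95% intervals of the log2 difference from -0.16 to 0.32 and from -0.12 to 0.21. Inflammatory transcripts that did not pass against EV-Control differed here: CXCL8 was at 70.8, 62.4 and 69.2 CPM in EV-Epinephrine and higher in EV-IL1b by 1.48 ± 0.17 SE (edgeR adjusted p = 0.00045), and IL6 was higher by 1.28. NFKBIA was higher by 0.83, at 159, 162 and 153 CPM in EV-Epinephrine, so that its order over the vesicle groups ran from EV-Epinephrine through EV-IL1b and EV-TNF, which did not differ beyond the test, to EV-Control and EV-C5a.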

How the data were processed

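RNA of hCMEC/D3 cells was extracted with RNeasy kits and 1 ng of total RNA went into NEBNext Ultra libraries, per the labels' protocols. The authors deposited 1 table of raw counts per Ensembl gene. The submitters' processing notes name STAR, FastQC, DESeq2, R 4.4.1 and the build hg38, and the counting tool, annotation and strand setting are not given in the sources used here. Of 63147 lines, 63138 genes were kept, and 4 lines without a gene ID, 2 without counts and 3 repeated IDs were left out. Counts were fitted with edgeR 4.0.16 in R 4.3.3 (filterByExpr, TMM factors, robust quasi-likelihood F-test, two-sided) over the 15 vesicle libraries, the 15 direct libraries or, for the interaction, all 30, with Benjamini-Hochberg adjustment over all genes tested. SE is the size of the log2 fold change divided by the square root of F. CPM use TMM factors over all 30 libraries. Library totals of 16643961 to 22112326 counts set the precision. On simulated data 94 of 100 genes changed by 1 on the log2 scale and 88 of 100 changed by 0.585 were found among 15625 genes, with 14 false calls. The simulation gave all groups the same spread and changed only genes above a count minimum. Its figures therefore do not cover the wider spread of EV-Control or genes of low count. Named genes were the 12 largest rises and falls that passed, had non-overlapping groups and a mean of 5 CPM or more in one of them, up to 2 called genes per list and direction, and a fixed set, and others were named after their values were seen. Members and lists were chosen with earlier results of these data known, and the promoter motifs after the list counts were seen. Promoters are from RefSeq (GRCh38.p14), and gene overlaps from GENCODE 29 on GRCh38. The alternatives (other scalings, filters, DESeq2 1.42.0, a replicate block, fewer libraries) are in the closing section. A few genes are not reported here.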

Additional observations from a re-analysis of the deposited data

Results flagged for a closer look

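The response to IL-1 beta differed between vesicle recipients and directly exposed cells in an interaction test (edgeR over all 30 libraries), which called 5879 genes. Each value that follows is the log2 fold change through vesicles minus the direct one, for a gene that this test called. Among cytokine, adhesion and related genes the values included CSF2 -9.47, TNFAIP6 -8.17, CSF3 -7.20, SELE -6.59, VCAM1 -5.58, CCL2 -4.20, CXCL8 -3.50, IL6 -2.22 and ICAM1 -1.96. In the IL-1 pathway they were IL1A -3.55, IL1B -3.48, IL1R1 -1.19, IL1RAP -0.78 and NFKBIA -0.98. Positive values were found for the contact genes FAT1 3.04, DSP 0.92, CLDN5 1.76, PECAM1 0.94 and CDH5 0.31, and for VIPR1 3.27, ST3GAL5 3.22, NR4A1 2.67 and PDK4 1.82. NR4A1 and PDK4 fell in both comparisons, and the positive value means the smaller fall through vesicles. CLDN5 and CDH5 fell directly and did not pass through vesicles. TNFAIP6 was near 0 in all vesicle libraries, so its value depends on the prior count.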

How the results depend on the processing

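Between EV-IL1b and EV-Control 2329 genes were called, 1033 higher and 1296 lower. With a log2 fold change over 1 also required there were 219, 110 and 109. Leaving out 1 library gave 1643 to 2334 called, 715 to 1051 higher and 928 to 1283 lower, and without EV-Control replicate 1 there were 1698, of which 1572 were among the 2329. The other settings gave 1643 to 2319 called genes, the fewest in the fit to the 6 libraries alone. With total counts in place of TMM factors 1186 were higher and 1087 lower. For EV-IL1b against EV-TNF the 1 call became 3 with total counts only, 23 without a low-count filter, 3 with the replicate block, 6 in the fit to the groups compared, 0 with all 30 libraries, 0 with a log2 fold change over 1, and 0 to 3 without 1 library. Against EV-Epinephrine the 963 became 1493 in the fit to the groups compared, 59 with a log2 fold change over 1, and 592 to 717 without 1 library. A log2 fold change over 1 left 134 against EV-C5a, 1118 in the direct comparison and 1188 in the interaction. Without 1 library these were 1185 to 1412, 6529 to 6804 and 5379 to 5688.

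No named gene reversed in any setting. Of the single-gene results under each setting, 1567 kept their call, 95 lost it and 11 gained it. Those gained were CSF3, SELE, CCL2, ATF3 and MIR23AHG, each under 1 to 3 settings. The counts per list were added after seeing the data.

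The shared replicate numbers gave correlations of 0.011, 0.014 and 0.0088 between the deviations of EV-IL1b and EV-Control libraries, so the numbers were not taken as pairs. With the replicate block 2246 genes were called, and each library correlated best with its own number, which is a hint from the data only. The causes of these changes were not tested. Depth limits genes of a few CPM, such as SELE, CXCL11 and EGR2.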

Other observations

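Genes outside the lists were looked at after their values were seen, so they carry no test of a theme, only their own. CMPK2 rose by 1.01, HERC5 by 0.86, DDX60L by 0.69, SAMD9L by 0.64, DTX3L by 0.54 and its partner PARP9 by 0.47 on the log2 scale, and each also rose under direct IL-1 beta. CD274, the checkpoint ligand PD-L1, rose by 0.54. The fixed list of matrix and integrin genes had 8 higher and 22 lower of 49. Single genes that rose included CD34, at 56.4 ± 1.47 CPM in EV-Control and 81.9 ± 3.11 CPM in EV-IL1b (SD, n = 3), and SVEP1, a matrix protein, at 16.1 ± 2.53 and 31.1 ± 0.66 CPM.

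The hyaluronan synthases fell in the main fit: HAS3 was at 40.0 ± 13.3 CPM in EV-Control and 13.5 ± 0.55 CPM in EV-IL1b (SD, n = 3), a log2 fold change of -1.57, and HAS1 and HAS2, at 2.27 and 1.49 CPM in EV-Control, fell by 2.98 and 1.96. HAS3 was wide in EV-Control, HAS1 and HAS2 were low in level, and their calls under other settings are not given here. TXNRD1 fell by 0.36, GPX1 by 0.51, NQO1 by 0.26, ME1 by 0.38 and the ferritin heavy chain FTH1 by 0.31. HIF1A, the oxygen-regulated transcription factor, fell by 0.39 and rose by 0.89 under direct IL-1 beta. Of the EGF receptor ligands, TGFA rose by 1.37 while HBEGF, AREG and EREG fell.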
